A study of Mus musculus with 12 samples.

Results

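*Atf4* and 9 genes that act with it in the integrated stress response, *Atf5*, *Atf3*, *Ddit3*, *Trib3*, *Chac1*, *Cebpb*, *Cebpg*, *Sesn2* and *Nupr1*, were followed in RNA-seq libraries of mouse embryonic stem cells (mESCs). The 10 genes were chosen by name from knowledge of the pathway, with earlier results of these data known. They were matched by symbol to 11 of 54146 gene identifiers, of which 54079 carried a symbol. The additional identifier, ENSMUSG00000116429.1, is a short second gene model of *Ddit3* that held at most 0.63 expected counts in a library, and the values below are those of the main model. All 12 libraries came from C57BL/6 mESCs of the genotype Prdm10 F/F with Rosa26-CreERT2, which carry floxed alleles of *Prdm10* and a tamoxifen-activated Cre recombinase expressed from the broadly active Rosa26 locus. Cells were exposed for 24 h to 50 nM 4-hydroxytamoxifen (OHT), which lets the recombinase remove the floxed part of *Prdm10*, or to ethanol (EtOH), its solvent, and RNA was taken at Day 2 or Day 4. Each of the 4 groups held 3 libraries, and no group received OHT without the floxed alleles or without Cre, so that effects of OHT and of Cre activity cannot be told apart from those of the deletion. The methods give independent biological repeats as the general rule of the study, but the labels do not say of these 3 libraries whether they came from separate cultures, and the p-values measure the spread between them.

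The integrated stress response starts with kinases that sense amino acid shortage, unfolded protein in the endoplasmic reticulum, viral RNA or heme loss and that phosphorylate the translation initiation factor eIF2. General translation then falls, while a few mRNAs with short upstream reading frames, that of the transcription factor ATF4 among them, are translated more. ATF4 pairs with other leucine zipper proteins and activates genes for amino acid supply, redox balance and the later arrest or death of the cell. Because much of this control acts on ATF4 translation, the mRNA level of *Atf4* is not a measure of its protein.

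ATF4 and its C/EBP partners bind a composite element, TGATGNAA, and some ATF family pairs bind a related element, TGACGNAA. Both strands of the 250 bases before the RefSeq start of each gene (GRCm38.p6) were searched for these letters, and the 3 genes that held them are shown because 2 of them, *Chac1* and *Nupr1*, had the lowest fold changes at Day 4. TGATGNAA was found before the start of 3 of the 10 genes (*Atf3*, *Chac1* and *Nupr1*) and of 3.91% of 27025 genes. TGACGNAA was found in 2 (*Atf3* and *Chac1*) and in 1.6% of genes. The windows follow, 5′ to 3′ on the strand of the gene, with the matched letters of either element, or of its reverse complement, in capitals.
Chac1, chr2:119350992-119351091, plus strand, 250 to 151 bases before the start, outside any annotated transcript: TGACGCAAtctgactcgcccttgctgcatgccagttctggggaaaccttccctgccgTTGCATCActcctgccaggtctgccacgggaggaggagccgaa
Nupr1, chr7:126625562-126625591, minus strand, 121 to 92 bases before the start, in an exon of other *Nupr1* transcripts: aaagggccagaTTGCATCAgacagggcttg
Atf3, chr1:191183334-191183463, minus strand, the last 130 bases before the start, within other *Atf3* transcripts: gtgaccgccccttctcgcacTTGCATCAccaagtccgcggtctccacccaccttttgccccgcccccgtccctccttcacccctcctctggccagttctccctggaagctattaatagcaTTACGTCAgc
In *Chac1* the elements begin 250 and 193 bases before the start, and in *Atf3* they begin 110 and 10 bases before it. The *Atf3* window also overlaps an annotated exon of *Atf3*. In *Trib3* a TGATGNAA match began 15 bases after the start. The 10 genes were chosen for their place in the ATF4 pathway, so their counts beside the shares of all genes are no test of the element. A match describes the letters of the window only, and a link between the elements and the fold changes was not tested. Binding was not measured in these libraries.

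Libraries held between 35017667 and 41409992 expected counts, and none of the replicates was a duplicate (chi-square per gene from 3.41 to 11.2). The targeted gene, *Prdm10*, was examined first, and its counts were higher in the libraries labelled OHT. Its normalised count was 767 to 821 in the EtOH and 2080.2 to 2225 in the libraries labelled OHT at Day 2, and 821 to 911 and 1965 to 2089.6 at Day 4. The fold was 2.71 and 2.31 (DESeq2 adjusted p = 1.37e-105 and 4.33e-83), but a count over the whole gene does not resolve the floxed exon and so checks the labels in neither direction. Directions below are those of the libraries labelled OHT. Markers of mESCs were high throughout, *Pou5f1* at 354 to 475 TPM (transcript abundance scaled to a fixed total) and *Nanog* at 149 to 180.1 TPM. Of 8 such markers, 2 were called higher and 2 lower in OHT at Day 2, and 5 higher and 0 lower at Day 4. Over all genes with a mean count above 100, 9.17% were higher and 10.6% lower at Day 2, and 23.5% and 21.6% at Day 4. The summed TPM of the 8 was higher in OHT without overlap at both days (2449 to 2546 against 2099 to 2360 at Day 4). The summed TPM of 12 markers of fibroblasts, endoderm, trophoblast, neural and mesoderm cells was 5.98 to 6.54 and 6.12 to 6.31 in the EtOH and OHT libraries of Day 2, and 5.72 to 6.71 and 4.42 to 4.92 at Day 4, where the ranges did not overlap. Of the fibroblast markers, *Col1a1* and *Col1a2* did not exceed 0.27 and 0.15 TPM, but *Thy1* reached 2.84 TPM. The trophoblast marker *Eomes* and the neural marker *Sox1* reached 1.71 and 0.57 TPM. *Thy1*, *Eomes* and *Sox1* are named after their values were seen. *Eomes* was called higher at Day 4 (0.47 on the log2 scale, DESeq2 adjusted p = 0.027). Below the mean count of 100 set for a call, *Thy1* stood at -1.12 (adjusted p = 0.000118) and *Sox1* at 0.50 (adjusted p = 0.0383). The part of other cells in the results was not tested.

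*Atf4* was by far the most abundant of the 10 mRNAs, and the order of the others differed between the labels at Day 4. TPM, which corrects for transcript length, was used to compare levels between genes. *Atf4* stood at 94.8 ± 2.84 TPM (SD, n = 3) in Day 2 EtOH, 88.1 ± 7.94 in Day 2 OHT, 152 ± 3.68 in Day 4 EtOH and 96.9 ± 1.03 in Day 4 OHT. *Sesn2* was second in each group, between 10.1 and 15.7 TPM, and *Atf3* was last, between 0.447 and 1.04 TPM. At Day 2 the 4 genes after it, *Cebpg*, *Nupr1*, *Trib3* and *Ddit3* in EtOH, lay between 7.97 and 8.95 TPM, and each overlapped its neighbor in that order. In Day 4 EtOH no 2 neighbors overlapped. *Chac1* ranked above *Ddit3*, *Cebpb*, *Atf5* and *Atf3* there, at 6.13 ± 0.14 TPM, and above *Atf3* alone in Day 4 OHT, at 0.923 ± 0.042 TPM. *Nupr1* stood just below *Trib3* at 12.1 ± 0.283 TPM in Day 4 EtOH, and below *Cebpb* at 2.66 ± 0.121 TPM in Day 4 OHT. *Ddit3* stood at 4.7 ± 0.306 TPM in Day 4 EtOH and at 6.04 ± 0.21 TPM in Day 4 OHT, where it overlapped *Trib3*.

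**Figure D1:**
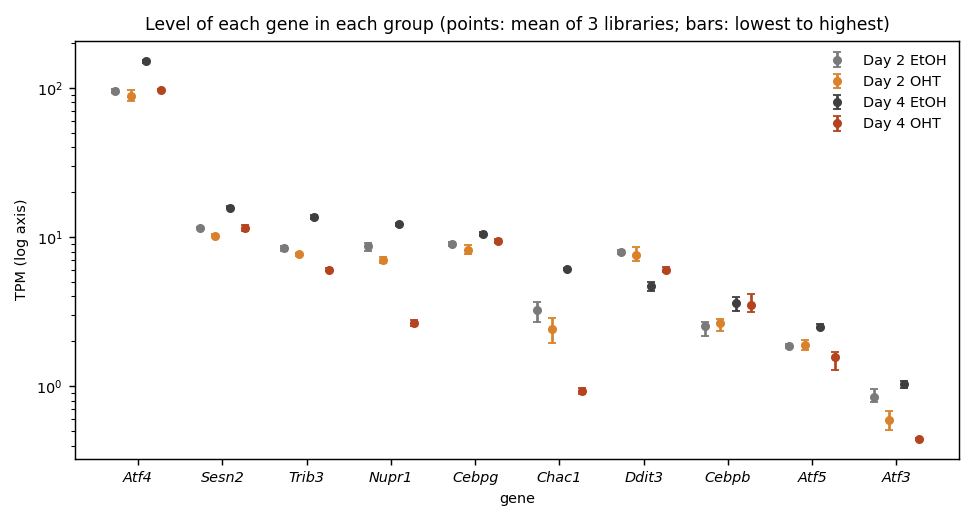
Level of each gene in TPM on a log axis, with the mean of 3 libraries as a point and the lowest to the highest library as a bar, for the 4 groups. *Atf4* lies far above *Sesn2* in each group, and the Day 4 OHT points of *Chac1* (0.923 TPM) and *Nupr1* (2.66 TPM) lie far below their other groups.

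The next comparison asked which of the 10 genes differed between the labels at each day. The values per library are counts normalised over all 12 libraries by DESeq2 size factors, and each fold change comes from the fit of the 6 libraries of 1 day. A gene was called at a DESeq2 adjusted p below 0.05 with a mean normalised count above 100. At Day 2, 6 of the 10 genes were called lower and 0 higher, where 10.6% of 11644 genes above the minimum mean were called lower and 9.17% higher. At Day 4, 6 were called lower and 1 higher, against 21.6% and 23.5% of 11555 genes. For the count of 0, edgeR also called 0 higher at Day 2, and 0 were higher at an unadjusted p below 0.05. *Atf3* lay under the minimum mean at both days, and 9 genes were above it. *Chac1* and *Nupr1* were above it at Day 4 only through their EtOH libraries. The median log2 fold change of the 9 genes was -0.24 at Day 2 and -0.61 at Day 4, and that of all genes was -0.03 and 0.01. Library ranges did not overlap between the labels for 7 of the 10 genes at Day 2 and for 9 at Day 4. The share of all genes with ranges apart was not computed, so these counts have no background and only describe the libraries. With total counts as scaling, 68.5% of the calls over all genes at Day 2 were higher in place of 46.3%, and 4 of the 10 genes were called lower.

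**Figure D2:**
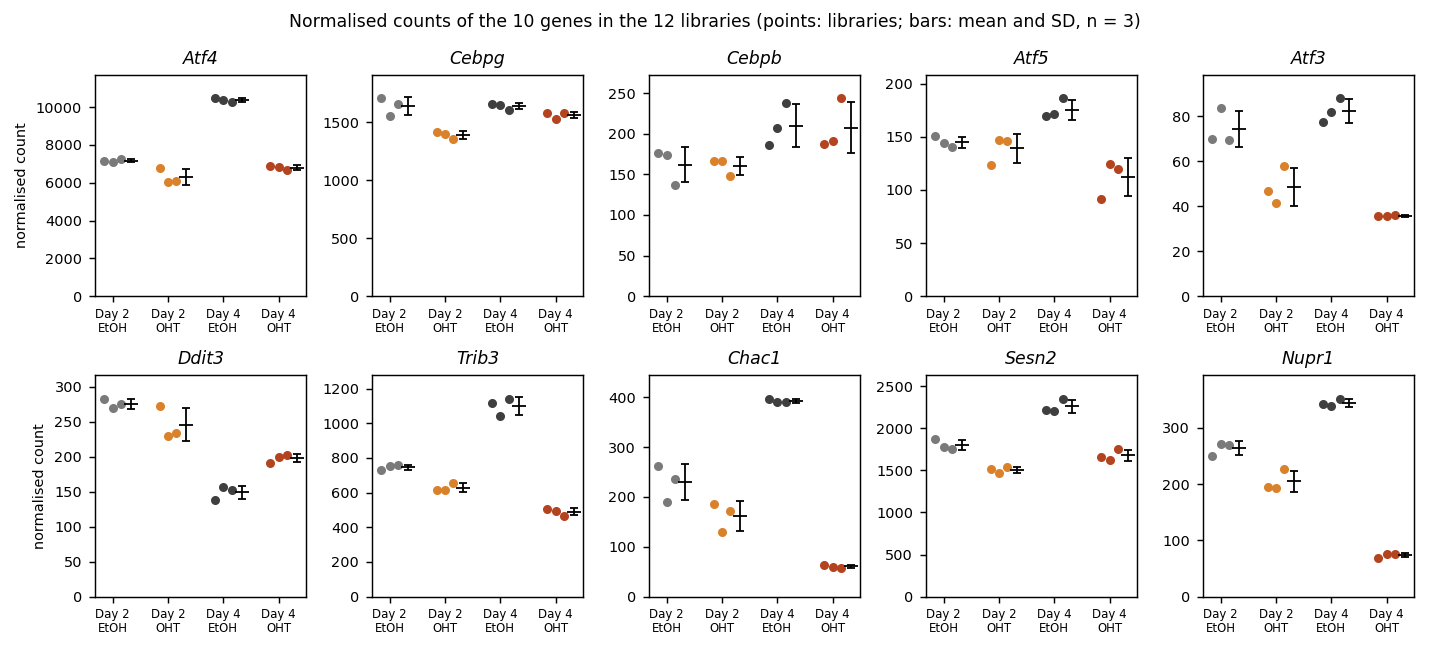
Normalised counts of the 10 genes on linear axes from 0, with a point per library and the mean and SD of each group (n = 3) beside the points. At Day 4 the OHT libraries of *Chac1* (57.7 to 63.2) and *Nupr1* (69.1 to 75.3) lie far below those of EtOH, while those of *Ddit3* (191.5 to 202) lie above them.

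*Atf4*, the transcription factor at the center of the response (ENSMUSG00000042406.8, chromosome 15, 80255184 to 80257541, plus strand), was lower in the OHT libraries at both days. At Day 2 its normalised counts were 7136, 7087 and 7263 in EtOH and 6770.2, 6039 and 6085 in OHT. At Day 4 they were 10461, 10356 and 10277 in EtOH and 6885, 6849.9 and 6651 in OHT. Every OHT library lay below every EtOH library of its day. The log2 fold change was -0.18 at Day 2 (SE 0.050, DESeq2 adjusted p = 0.00287) and -0.61 at Day 4 (SE 0.032, adjusted p = 1.69e-79). The Day 2 call was lost without the second OHT library (-0.15, adjusted p = 0.0543).

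Of the C/EBP proteins, which pair with ATF4 on composite elements, *Cebpg* was lower at Day 2 and *Cebpb* was called at neither day. *Cebpg* (ENSMUSG00000056216.9, chromosome 7, 35046422 to 35056573, minus strand) encodes a partner that lacks an activation domain of its own. Its normalised counts at Day 2 were 1706.5, 1555 and 1654 in EtOH and 1419.7, 1396 and 1352 in OHT. Those of Day 4 were 1661, 1651 and 1606.5 in EtOH and 1580.4, 1530.1 and 1579 in OHT. The labels were apart at both days, though narrowly at Day 4. Its log2 fold change was -0.24 at Day 2 (SE 0.063, adjusted p = 0.00225) and -0.07 at Day 4 (95% interval -0.18 to 0.03, adjusted p = 0.343). *Cebpb* (ENSMUSG00000056501.3, chromosome 2, 167688915 to 167690418, plus strand), an activator that many stresses induce, had counts of 176, 173 and 137 in EtOH and 167, 166 and 148 in OHT at Day 2. At Day 4 it had 186, 206.5 and 238 in EtOH and 188, 191 and 244 in OHT. The labels overlapped at both days, with log2 fold changes of -0.02 (95% interval -0.34 to 0.31) and -0.02 (-0.32 to 0.28), whose sign turned in other settings. In the annotation (GENCODE vM21), 312 of the 1504 exon bases of *Cebpb* overlap *Tmem189* on the opposite strand, and 73 of the 5621 of *Cebpg* overlap *Gm44836* on the same strand. Libraries were stranded, but the strand setting of the counting is not given in the sources used here.

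The ATF relatives *Atf5* and *Atf3* are themselves known targets of the pathway, and both were lower at Day 4. *Atf5* (ENSMUSG00000038539.15, chromosome 7, 44812256 to 44816658, minus strand), a factor tied to the mitochondrial stress response, had normalised counts of 150.4, 144 and 140.0 in EtOH and 124, 147 and 146 in OHT at Day 2, where the labels overlapped. At Day 4 it had 169, 171 and 186 in EtOH and 91.8, 125 and 120.0 in OHT, and the labels were apart. The log2 fold change was -0.06 at Day 2 (95% interval -0.39 to 0.27) and -0.65 at Day 4 (SE 0.17, adjusted p = 0.000998). Of the 1993 exon bases of *Atf5*, 82 overlap *Nup62* and 82 overlap *Il4i1*, both on the opposite strand. *Atf3* (ENSMUSG00000026628.13, chromosome 1, 191170296 to 191218039, minus strand), an immediate early stress factor, had few reads, with 70.0, 83.8 and 69.5 in EtOH and 46.9, 41.3 and 57.7 in OHT at Day 2. At Day 4 the counts were 77.4, 82.0 and 88.0 in EtOH and 35.5, 35.6 and 36.3 in OHT. No OHT library reached an EtOH library at either day. On the log2 scale the fold change was -0.62 (SE 0.26, adjusted p = 0.0852) at Day 2 and -1.21 (SE 0.26, adjusted p = 2.97e-05) at Day 4, and only the minimum mean kept *Atf3* from a call at Day 4.

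*Ddit3* (ENSMUSG00000025408.15, chromosome 10, 127290774 to 127296288, plus strand), which encodes the pro-apoptotic factor CHOP, was the exception. At Day 2 its normalised counts were 283, 269 and 275 in EtOH and 272, 230.0 and 233 in OHT. At Day 4 they were 138, 156 and 153 in EtOH and 191.5, 199.7 and 202 in OHT. The labels overlapped at Day 2, and at Day 4 every OHT library lay above every EtOH library. The log2 fold change was -0.17 at Day 2 (95% interval -0.42 to 0.09, adjusted p = 0.438) and 0.40 at Day 4 (SE 0.15, adjusted p = 0.0246). The Day 4 call was lost without any 1 of the 6 libraries (0.35 to 0.44, adjusted p from 0.0582 to 0.105) and with effective lengths as offsets (0.40, adjusted p = 0.0502). Of its 1713 exon bases, 68 overlap *Mars* on the opposite strand, itself called lower at Day 4 (-0.29).

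The feedback gene *Trib3* and the effectors *Chac1*, *Sesn2* and *Nupr1* were lower at both days, and *Chac1* and *Nupr1* differed most. *Trib3* (ENSMUSG00000032715.9, chromosome 2, 152337422 to 152344032, minus strand) encodes a pseudokinase that binds ATF4 and restrains it. Its normalised counts were 731, 751 and 757 in EtOH and 615, 613 and 657 in OHT at Day 2, and 1116, 1041 and 1142 against 506, 493 and 467 at Day 4. The labels were apart at both days. For *Trib3* the log2 fold change was -0.25 (SE 0.082, adjusted p = 0.0198) at Day 2 and -1.17 (SE 0.078, adjusted p = 3.17e-49) at Day 4. *Sesn2* (ENSMUSG00000028893.8, chromosome 4, 132492032 to 132510501, minus strand) encodes a leucine sensor that holds back the growth kinase mTORC1. It had 1870.1, 1782 and 1756 in EtOH and 1515.5, 1469.9 and 1543 in OHT at Day 2, and 2224, 2210.3 and 2355 against 1657, 1629 and 1750.2 at Day 4. Here too no libraries of the 2 labels overlapped, with log2 fold changes of -0.26 (SE 0.059, adjusted p = 0.00033) and -0.43 (SE 0.053, adjusted p = 7.3e-15).

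*Chac1* (ENSMUSG00000027313.3, chromosome 2, 119351229 to 119354381, plus strand) encodes an enzyme that degrades glutathione. At Day 2 its normalised counts were 262, 191 and 237 in EtOH and 187, 129 and 171 in OHT, so that the lowest EtOH library was only just above the highest OHT library. At Day 4 they were 397, 391 and 390.5 in EtOH and 63.2, 60.3 and 57.7 in OHT, a gap far wider than the spread within either label. The log2 fold change was -0.51 (SE 0.17, adjusted p = 0.0226) at Day 2 and -2.71 (SE 0.16, adjusted p = 3.48e-65) at Day 4, which is 6.52-fold lower. *Nupr1* (ENSMUSG00000030717.9, chromosome 7, 126623249 to 126630861, minus strand) encodes a small stress-induced chromatin protein. It had 249.7, 272 and 270.3 in EtOH and 196, 193 and 227 in OHT at Day 2, and 343, 339 and 352 against 69.1, 75.1 and 75.3 at Day 4. The labels were again apart at both days. Its log2 fold change was -0.36 (SE 0.14, adjusted p = 0.0447) at Day 2 and -2.24 (SE 0.15, adjusted p = 3.15e-46) at Day 4, or 4.71-fold lower. The Day 2 calls of 3 of these genes were lost when 1 of several libraries was left out. With the replicate number as a block all 3 calls were lost too, and with total counts as scaling those of *Trib3* and *Nupr1*. *Nupr1* also lost its call with TMM factors (adjusted p = 0.0551) and *Trib3* with effective lengths as offsets (adjusted p = 0.0637). *Chac1* lost its call without the first EtOH, the third EtOH or the second OHT library (-0.36 to -0.48, adjusted p from 0.116 to 0.245). *Trib3* (-0.23 to -0.27, adjusted p from 0.0542 to 0.0993) and *Nupr1* (-0.32 to -0.41, adjusted p from 0.0851 to 0.185) lost theirs without any 1 of the 3 EtOH libraries or the first or second OHT library. *Sesn2* and *Cebpg* kept their Day 2 calls, and *Atf4*, *Atf5*, *Trib3*, *Chac1*, *Sesn2* and *Nupr1* their Day 4 calls, whichever library was left out.

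**Figure D3:**
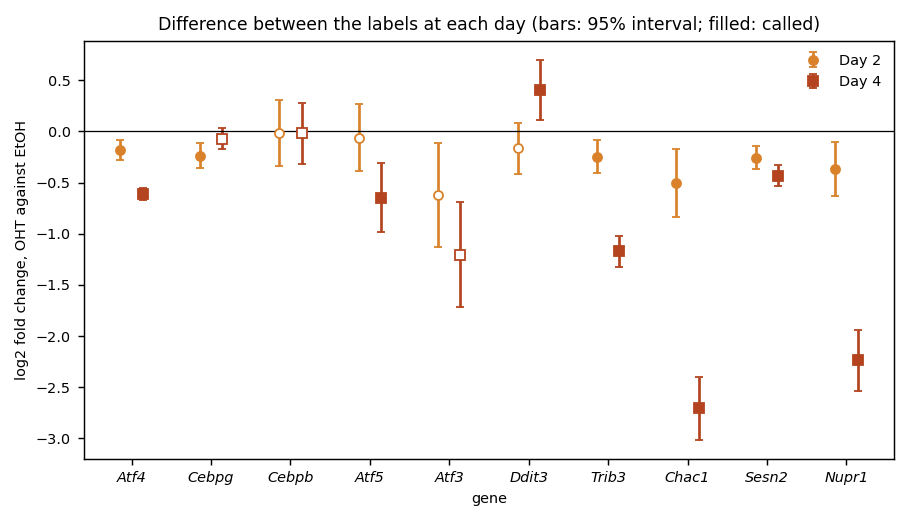
Log2 fold change of OHT against EtOH for each gene at Day 2 (circles) and Day 4 (squares), with 95% intervals and filled symbols for called genes. *Chac1* (-2.71) and *Nupr1* (-2.24) lie lowest at Day 4, and *Ddit3* (0.40) alone lies above 0 with an interval that leaves out 0.

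Whether the difference between the labels itself changed from Day 2 to Day 4 was tested with an interaction term (treatment by day) in a fit of the 12 libraries. For 5 of the 10 genes the Day 4 effect was more negative, and for 1 it was more positive, where 13.6% and 18.7% of 11616 genes were called in these directions (58.0% of all calls more positive, 44.2% with total counts as scaling). The difference of the effects on the log2 scale was -2.20 for *Chac1* (SE 0.22, adjusted p = 1.99e-20), -1.87 for *Nupr1* (SE 0.18, adjusted p = 4.24e-23), -0.92 for *Trib3* (SE 0.098, adjusted p = 1.05e-18) and -0.42 for *Atf4* (SE 0.056, adjusted p = 5.01e-12). *Atf5* followed at -0.58 (SE 0.21, adjusted p = 0.0301), a call lost without each of 8 libraries in turn (adjusted p from 0.0532 to 0.145). *Ddit3* was the 1 gene with a more positive effect at Day 4, by 0.57 (SE 0.17, adjusted p = 0.00489). The other differences were not called, with *Sesn2* at -0.17 (95% interval -0.31 to -0.04, adjusted p = 0.0546), *Cebpg* at 0.17 (0.03 to 0.31, adjusted p = 0.0658) and *Cebpb* at 0.00 (-0.42 to 0.42). *Sesn2* passed the threshold without the first Day 2 EtOH or the third Day 4 OHT library (adjusted p = 0.0458 and 0.0391), and *Cebpg* without the second Day 2 EtOH library (adjusted p = 0.039).

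The groups were also compared between the days within each label. These comparisons use the same libraries as those above and are given beside them. In EtOH, 5 of the 10 genes rose from Day 2 to Day 4 and 1 fell, where 20.5% of 11572 genes were called in each direction. *Atf4* rose by a log2 fold change of 0.53 (SE 0.034, adjusted p = 1.11e-52), *Chac1* by 0.77 (SE 0.13), *Trib3* by 0.56 (SE 0.073), *Nupr1* by 0.38 (SE 0.12, adjusted p = 0.00515, and 0.0571 without the first Day 2 library) and *Sesn2* by 0.32 (SE 0.055). *Ddit3* fell by 0.89 (SE 0.14, adjusted p = 5.91e-09). In the libraries labelled OHT, 4 genes were called higher at Day 4 and 3 lower, against 30.8% and 23.0% of 11638 genes. There *Nupr1* fell by 1.48 (SE 0.18, adjusted p = 1.92e-15), *Chac1* by 1.42 (SE 0.21, adjusted p = 1.27e-10) and *Trib3* by 0.36 (SE 0.088, adjusted p = 0.00025). *Ddit3* stood at -0.31 in OHT (95% interval -0.58 to -0.04) and was not called (DESeq2 adjusted p = 0.0625), though its libraries were apart. It was called lower by edgeR (adjusted p = 0.0107) and with total counts as scaling (DESeq2 adjusted p = 0.0404). The 4 higher genes differed little, with log2 fold changes of 0.37 for *Cebpb*, 0.17 for *Cebpg*, 0.16 for *Sesn2* and 0.11 for *Atf4* (adjusted p = 0.0423, with overlapping libraries). With 1 OHT library left out, 1 to 3 of these 4 calls remained (1 without the second of Day 2 or the third of Day 4), and 1 remained with total counts as scaling. Without the first OHT library of Day 2, *Chac1* fell under the minimum mean. From Day 2 to Day 4, then, *Chac1*, *Nupr1* and *Trib3* rose in EtOH and fell in OHT. *Ddit3* fell in EtOH, and its OHT value was also below 0 but not called in the main fit. *Atf4* and *Sesn2* rose in EtOH, and their small OHT differences did not hold in all settings. The *Atf4* call in OHT was lost without 5 of the 6 libraries in turn (adjusted p from 0.0737 to 0.246), and that of *Sesn2* without the second of Day 2 (adjusted p = 0.104) or the third of Day 4 (0.121). With total counts as scaling both were lost (adjusted p = 0.163 and 0.0687).

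The other genes of the pathway were described by lists. Of the 4 eIF2α kinases, 0 were called at Day 2 by DESeq2, 0 by edgeR and 0 at an unadjusted p below 0.05. Among all genes above the minimum mean, 10.6% were called lower and 9.17% higher at Day 2, and 21.6% and 23.5% at Day 4. The lists of kinases, regulators and phosphatase subunits are too short to be set against these shares. In each list for which 0 genes were called higher below, 0 were also higher by edgeR and at that unadjusted p. At Day 4 *Eif2ak1*, the heme-regulated kinase, was lower (-0.29, SE 0.060, adjusted p = 1.6e-05) and *Eif2ak4*, the amino acid sensor GCN2, was higher (0.15, SE 0.055, adjusted p = 0.0181). *Eif2ak3*, the endoplasmic reticulum sensor PERK, stood at -0.09 and -0.06, and *Eif2ak2*, which senses double-stranded RNA, at 0.0047 and 0.0066 at the 2 days. Of 5 regulators of the kinases, *Impact*, an inhibitor of GCN2 activation, was higher at Day 2 (0.26, SE 0.050, adjusted p = 6.16e-06) and Day 4 (0.46, SE 0.041, adjusted p = 9.07e-27). Its normalised counts were 3878 to 4097 in EtOH and 4517 to 4937 in OHT at Day 2, and 3235 to 3447 and 4493 to 4699 at Day 4, so that the labels did not overlap. *Gcn1*, the ribosome-bound activator of GCN2, was higher at Day 4 (0.27, SE 0.035, adjusted p = 1.76e-13), and *Oma1*, *Dele1* and *Dnajc3* were called at neither day, while edgeR called 2 of the 5 higher at Day 2 and 1 lower at Day 4. The subunits that direct phosphatase to eIF2α moved apart at Day 4, the inducible *Ppp1r15a* higher (0.26, SE 0.071, adjusted p = 0.00111) and the constitutive *Ppp1r15b* lower (-0.17, SE 0.035, adjusted p = 1.09e-05).

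Of 11 genes of eIF2, its exchange factor eIF2B and related initiation factors, 2 were called lower and 0 higher at Day 2 (*Eif2s1* and *Eif2b2*), and 6 were lower and 2 higher at Day 4. Over all genes above the minimum mean, 10.6% were lower and 9.17% higher at Day 2, and 21.6% and 23.5% at Day 4, so that the Day 2 count was near the share of all genes. The lower genes at Day 4 lay between -0.12 (*Eif2a*) and -0.27 (*Eif2b1*), and the higher genes were *Eif2s3y* (0.43) and *Eif2b5* (0.22). *Eif2s3x*, the related copy of *Eif2s3y*, stood at -0.06 at Day 4, and sharing of reads between the copies was not examined. Of 17 other CREB and ATF genes, 10 passed the minimum mean at Day 2, with 1 higher and 1 lower, and 9 at Day 4, also with 1 of each. These counts were near or under the shares of all genes given above. The Day 4 pair was *Creb1* (0.22, SE 0.039) and *Atf2* (-0.13, SE 0.048). The Day 2 pair, *Atf7* (0.76, SE 0.13) and *Crebzf* (-0.33, SE 0.064), is named after its values were seen. Of 4 further genes of C/EBP name, only *Cebpz*, a CCAAT-binding protein outside the leucine zipper family, passed the minimum mean, and it was lower at Day 4 (-0.13, SE 0.036).

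Known effectors of ATF4, genes of amino acid synthesis and import, tRNA charging, one-carbon metabolism and growth control, were lower as a group. Of 39, 35 passed the minimum mean at Day 2 and 28 of these were called lower and 0 higher, beside 10.6% and 9.17% of all genes. At Day 4 all 34 that passed it were called lower, beside 21.6% of all genes, and without the minimum mean 37 of the 39 were. Their median log2 fold change was -0.25 and -0.54. Among those called, the lowest at Day 4 were *Pck2*, the mitochondrial phosphoenolpyruvate carboxykinase (-1.30, SE 0.071), and *Slc1a4*, a neutral amino acid transporter (-1.26, SE 0.073). *Pck2* had normalised counts of 1304 to 1355 in EtOH and 512 to 554 in OHT, and *Slc1a4* had 1201 to 1276 and 504 to 531, with no overlap. The 3 that passed the adjusted p but not the minimum mean, named after their values were seen, were lower still, *Slc7a11* at -2.78, *Slc6a9* at -1.85 and *Vldlr* at -1.64. The smallest differences among the called were those of *Eprs* (-0.13, SE 0.026) and *Vegfa* (-0.23, SE 0.071). TGATGNAA stood in the 250 bases before the start of 9 of the 30 effectors with a matched promoter, beside 3.91% of genes. TGACGNAA stood in 0 of them, beside 1.6% of genes. The list was made of known effectors of ATF4, and a link between the element and the fold changes was not tested.

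Genes of the endoplasmic reticulum arms of the unfolded protein response, which ATF6 and XBP1 control in the main, gave smaller values. Of 20, all above the minimum mean, 9 were called lower and 0 higher at each day, with medians of -0.13 and -0.10. Beside these stood the 10.6% and 21.6% of all genes that were called lower at Day 2 and Day 4, and the 9.17% and 23.5% called higher. *Herpud1*, which acts in the degradation of misfolded protein, was lowest at Day 4 (-1.29, SE 0.079, adjusted p = 5.37e-58), at 411 to 424 in OHT against 1005 to 1039 in EtOH. *Syvn1*, a ubiquitin ligase of the same pathway, followed (-0.83, SE 0.14). The chaperones *Hspa5* (-0.14, SE 0.031) and *Hsp90b1* (-0.12, SE 0.034) had the smallest differences among the genes called at Day 4 when ordered by size. At Day 2 the number called lower was 3 with total counts as scaling and 3 to 5 without the first or second EtOH or the second OHT library.

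**Figure D4:**
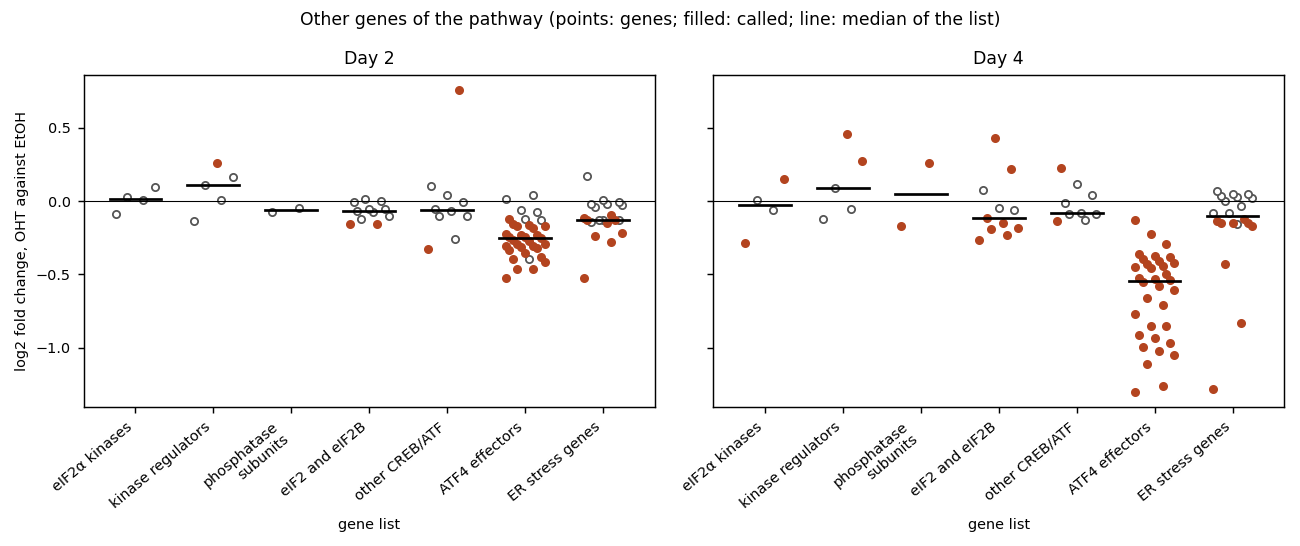
Log2 fold change of OHT against EtOH for the genes above the minimum mean in 7 lists at Day 2 (left) and Day 4 (right), with filled points for called genes and a line at each list's median. The ATF4 effectors lie lowest, with medians of -0.25 and -0.54, while the kinases and their regulators lie on both sides of 0. The phosphatase subunits lie just below 0 at Day 2 and on both sides of it at Day 4.

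The pattern of *Atf4* over the 12 libraries was compared with that of 11616 genes above the minimum mean by Pearson's r of log2 normalised counts, with 1 added. These libraries form 4 groups, so that r describes the group pattern, and no test was made. The 6 most similar genes outside the 10 were *Gcsh* (0.988), *Khdc3* (0.986), *Ppp2r5b* (0.984), *Kifc1* (0.981), *Gpt2* (0.980) and *Gm45251* (0.979), and the same 6 came first with TMM factors or total counts as scaling. Among the 10 genes, *Sesn2* was the most similar to *Atf4* (0.951), followed by *Trib3* (0.857), and *Ddit3* was the 1 gene with a negative r (-0.761). The others lay between 0.461 for *Cebpb* and 0.706 for *Chac1*.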

How the data were processed

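RNA-seq was analysed in 12 mESC libraries, grouped by sample title. Reads had been aligned to GRCm38.p6 by STAR (2.6.0c) and counted over GENCODE vM18 genes by the authors, who deposited, per gene and library, RSEM expected counts (estimated numbers of read pairs, shared among genes where a pair maps to several) and TPM values. The deposited scores are the posterior SD of each count, effective lengths and interval bounds of TPM. The authors' tables of fold changes and p-values were used for symbols only. Coordinates are those of GENCODE vM21 on GRCm38, and promoter sequences those of RefSeq (GRCm38.p6).

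Expected counts were rounded and tested with DESeq2 (1.42.0, R 4.3.3) (Wald test, DESeq2's own size factors), with p-values adjusted over all genes (Benjamini-Hochberg) and independent filtering at its default of 0.1. A first run had filtered at 0.05. The default was then taken, to match an earlier analysis of these data, and the first setting is kept as an alternative. Fold changes were not shrunken. Alternatives were edgeR (4.0.16), TMM factors, total counts, effective lengths as offsets, the replicate number as a block, all 12 libraries in 1 fit, no minimum mean, and each library left out. The model was tested on simulated data. Counting error only is covered by depth, and read pairs are not independent molecules, so SDs over libraries give the error. Posterior SDs of the 10 genes' counts did not exceed 0.44.

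The 10 genes and the lists were chosen with earlier results of these data known. Named genes are the 10, *Prdm10*, genes of the kinase, regulator, phosphatase and eIF2 lists, the 2 most negative and 2 most positive called Day 4 fold changes of the other 4 lists, and the 6 genes most like *Atf4*.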

Additional observations from a re-analysis of the deposited data

Results flagged for a closer look

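The treatment effect differed between the days, by the interaction test of DESeq2, for 6 of the 10 genes. Of 11616 genes, 18.7% were called more positive at Day 4 and 13.6% more negative by the same test. On the log2 scale the Day 4 effect minus the Day 2 effect was -0.42 for *Atf4*, -0.58 for *Atf5*, 0.57 for *Ddit3*, -0.92 for *Trib3*, -2.20 for *Chac1* and -1.87 for *Nupr1*. *Ddit3* was the 1 gene whose effect was more positive at Day 4. The *Atf5* call was lost without each of 8 libraries in turn (adjusted p from 0.0532 to 0.145) and with the replicate block (adjusted p = 0.0693).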

How the results depend on the processing

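The 6 genes called lower at Day 4 numbered 6 in each alternative run, except 7 with no minimum mean. Independent filtering at 0.05, the setting run first and listed as an alternative after the data were seen, changed no call of the 10 genes. At Day 2 the 6 lower calls became 2 to 6 with a library left out and 3 with the replicate block. The 1 higher call at Day 4 (*Ddit3*) became 0 with effective lengths as offsets, 0 with the replicate block and 0 whichever library was left out. The 1 gene with a more positive effect at Day 4 became 1 to 2 with a library left out. The 4 genes higher at Day 4 in OHT became 1 with total counts as scaling, 0 with the replicate block and 1 to 3 with a library left out. Same-numbered libraries did not deviate together (r from -0.385 to 0.285), so the replicate numbers were not taken as pairs.

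Directions turned only where the main value was near 0. With total counts as scaling *Cebpb* stood at 0.0218 at Day 2 and -0.0456 in the interaction, and *Cebpg* between the days in EtOH at 0.0201, and at 0.091 with effective lengths as offsets. With a library left out, *Atf5* at Day 2 ranged from -0.1046 to 0.0171, *Cebpb* from -0.1198 to 0.0428 at Day 2, -0.1518 to 0.079 at Day 4 and -0.1305 to 0.1057 in the interaction, and *Cebpg* from -0.0385 to 0.0282 between the days in EtOH. The cause of these changes was not tested. Calls over all genes numbered 1068 higher and 1238 lower at Day 2, and 1585 and 1542 with edgeR, 1130 and 1002 with TMM factors, 1389 and 638 with total counts and 648 and 636 with the replicate block.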
